A study of Mus musculus with 25 samples.

Results

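The 39 genes described here carry glucose from the cell surface to acetyl-CoA, or into and out of glycogen. They were chosen by name for their known place in glucose uptake, glycolysis, lactate exchange, pyruvate oxidation and glycogen handling, and the TPM (the abundance of a transcript relative to all others, corrected for its length) of all transcripts of each symbol was summed. All 39 were listed among 35922 gene symbols, and all 39 passed the filter on low values that left 11974 genes for testing. The mRNA came from left ventricular tissue of 25 male mice, 5 in each of 5 groups. WT CNTL and GPx4+/- CNTL mice were littermates on a low-fat, starch-based diet (6% of kcal as fat). They received it for 16 weeks from an age of 8 to 10 weeks. GPx4+/- mice carry 1 disrupted copy of the gene for glutathione peroxidase 4, an enzyme that reduces lipid peroxides. WT HFHS and GPx4+/- HFHS mice received a high-fat, high-sucrose diet (35.5% of kcal from lard-based fat and 38% from sucrose, with added cholesterol) for 16 weeks from an age of 8 to 10 weeks. WT HFHS + Carnosine mice were given in addition 80 mM carnosine, a histidine-containing dipeptide, in the drinking water from week 7 of the diet. A GPx4+/- HFHS group with carnosine was not analysed here. Per the study's methods, all mice were fasted and then injected with dextrose or with saline before tissue was taken. The labels do not say which mouse received which, so any part of an acute glucose load in the values below was not tested.

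Glucose enters cardiac myocytes through the transporters GLUT1 (Slc2a1) and GLUT4 (Slc2a4, the insulin-responsive form), is trapped by hexokinase and is split by glycolysis to pyruvate, with phosphofructokinase as the main point of control. Pyruvate is either reduced to lactate by lactate dehydrogenase or taken into mitochondria by the MPC carrier and oxidised by the pyruvate dehydrogenase complex, which kinases (PDK) switch off and phosphatases (PDP) switch on. The adult heart lives mostly on fatty acids, and several of these steps are run by 2 or 3 isoenzymes, 1 of which prevails in striated muscle.

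Gpx4 itself was the check of the genotype labels: all 10 GPx4+/- mice lay between 250.3 and 382 scaled TPM and all 15 WT mice between 590.0 and 777. Scaled TPM here means the summed TPM of a gene divided by a median-ratio factor of its library (0.865 to 1.16), because mitochondrial transcripts took between 31.3% and 48.7% of a library's TPM and TPM is a share. The table keeps no read depth, so no counting error is given, and between 11644 and 12296 genes per library reached 1 TPM. The 6 ventricular cardiomyocyte markers were high in all 25 mice (summed scaled TPM 37665 to 47316). Atrial markers, which sum to between 31.5 and 280.0 in 20 mice, reached 4633 in WT CNTL mouse 3, 7435 and 1498 in GPx4+/- CNTL mice 1 and 2, 2727 in GPx4+/- HFHS mouse 4 and 594 in WT HFHS + Carnosine mouse 2. Hepatocyte markers reached 1408 in GPx4+/- CNTL mouse 2 and smooth muscle markers 634 in WT HFHS mouse 4. For the 39 genes and the other pathway genes, limma calls that changed without these 6 mice are therefore given beside the results. Each fit loses only those of the 6 that belong to it. The diet and genotype fits hold no carnosine mouse, and in them GPx4+/- CNTL loses mice 1 and 2. The defining genes of brown fat (Ucp1) and fast skeletal muscle (Myh4) were at 0 in 20 and 16 of the 25 mice. Skeletal muscle markers summed to between 1.08 and 2.98. GPx4+/- HFHS mice 1 and 3, with hepatocyte marker sums of 139 and 98.1, were not among the 6 mice left out.

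As a level, the 39 genes spanned from 2413 scaled TPM for Aldoa (aldolase A) to 1.19 for Pdk3, averaged over all mice. Because TPM is corrected for length, these levels can be compared between genes. They include transcripts not annotated as protein-coding, such as Dlat-202 (47.4% of the Dlat level), Mpc2-203 (41.9% of Mpc2) and Gpi1-207 (30.5% of Gpi1). Aldoa and Gapdh (2303) together made up 32.1% of the summed level of the 39 genes, and the first 5, with Ldhb, Eno3 and Pkm, 53.5%. The muscle forms led their families: Eno3 stood at 999 scaled TPM against 128 for Eno1, Pgam2 at 698 against 46.6 for Pgam1, Pfkm at 484 against 65.9 for Pfkl and 22.8 for Pfkp, and Slc2a4 at 239 against 8.27 for Slc2a1. Lactate dehydrogenase was mostly the heart form, with 1406 for Ldhb against 476 for Ldha. The brain form of glycogen phosphorylase, Pygb (307), was in contrast about as abundant as the muscle form Pygm (280.2). The summed level of the 39 genes was 14881 ± 984 (SD, n = 5) in WT CNTL, 14576 ± 742 in WT HFHS and 14709 ± 920 with carnosine. In GPx4+/- it was 14666 ± 834 on CNTL and 14657 ± 759 on HFHS, so the group means lay within 1 SD of each other.

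The question of the diet comparison was which of these steps differ in the heart after 16 weeks of HFHS. Over both genotypes, 9 of the 39 genes had an adjusted p under 0.05 (23.1%, against 8.33% of all genes tested; limma on log2(scaled TPM + 0.5), Benjamini-Hochberg over 11974 genes). Of these 9, 5 rose (4.69% of all genes tested rose): Pfkl, Ldha, Pygb, Pkm and Pdk1. The other 4 fell (3.65% of all genes fell): Slc2a1, Eno3, Pdp2 and Slc2a4. The 39 genes were chosen with earlier results of these data known, so such shares, here and below, are description only. The changes were small, between -0.29 and 0.34 on the log2 scale, and the median of the 39 log2 fold changes was -0.03, beside -0.0023 over all genes. Whether called or not, 18 of the 39 were higher and 21 lower. The split of the calls depended on the scaling. With TPM as deposited, 2 of the 39 were higher and 5 lower, and all genes split into 145 higher and 573 lower rather than 561 and 437. With mitochondrial transcripts left out and TPM rescaled, 3 were higher and 6 lower, beside 283 and 533 of all genes. Pfkl, Ldha and Eno3 were called in the same direction under all 11 alternative settings. Pkm and Pygb were called under 9 of them, Slc2a1, Pdk1 and Pdp2 under 8, and Slc2a4 under 7. By role, glucose entry had 2 genes lower of 4, upper glycolysis 1 higher of 8, lower glycolysis 1 higher and 1 lower of 7, lactate 1 higher of 3, kinases and phosphatases 1 higher and 1 lower of 5, and glycogen 1 higher of 5. None of the 2 pyruvate carrier genes or 5 pyruvate dehydrogenase genes passed the test.

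**Figure D1:**
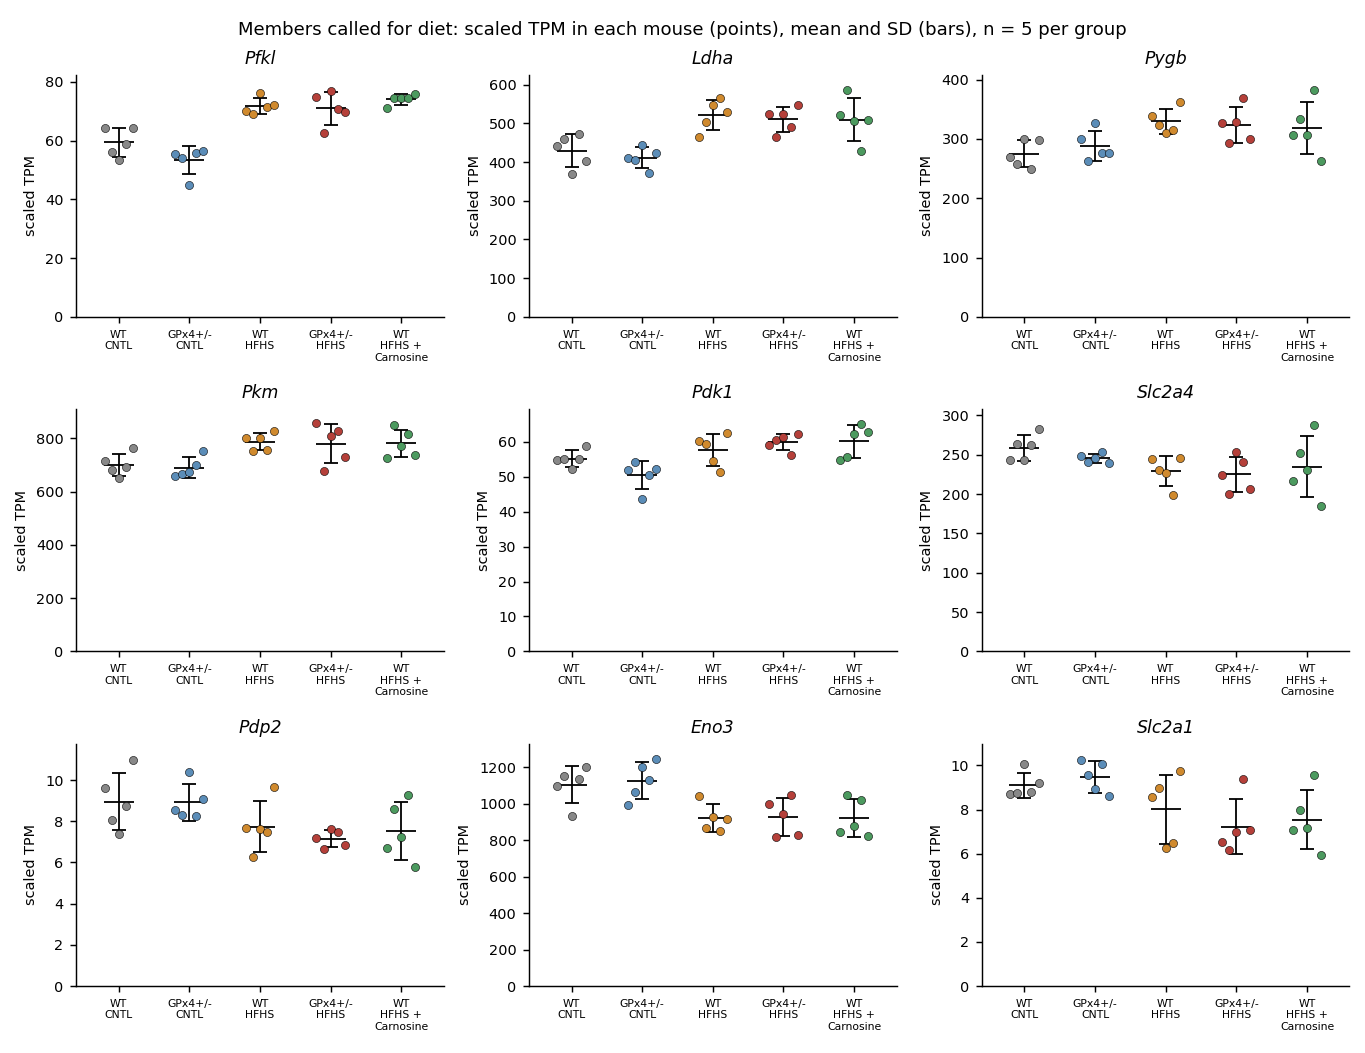
Scaled TPM (y axis, from 0) of the 9 genes that passed the test for diet over both genotypes, 1 panel each, in the 5 groups (x axis). Points are mice and bars are means ± SD (n = 5 per group). Pfkl lies higher in every HFHS mouse than in any CNTL mouse of the same genotype, while Slc2a4 and Pdp2 overlap in WT.

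In WT mice alone none of the 39 genes passed the test (background 1.19%; 142 genes in all), with 8 at an unadjusted p under 0.05, beside 1979 of all genes. Ldha (adjusted p = 0.0535, limma) and Pfkl (adjusted p = 0.0545) came closest. In GPx4+/- mice 3 passed, all higher (7.69% of the members, background 3.34%): Pfkl, Ldha and Pdk1. With TPM as deposited, which moved the median of all genes in this comparison to -0.10 on the log2 scale, none was higher and 4 were lower (Eno3, Pdp1, Pdp2 and Slc2a1), beside 37 higher and 388 lower of all genes. With mitochondrial transcripts left out 1 was higher (Pfkl) and 1 lower (Eno3), beside 109 and 113 of all genes. In GPx4+/- the fit without the 6 mice with high markers of other tissue lacked CNTL mice 1 and 2 and HFHS mouse 4. In that fit the same 3 genes were higher and 2 were lower, Eno3 (log2 -0.41, adjusted p = 0.0170, limma) and Pdp1 (log2 -0.38, adjusted p = 0.0286), beside 170 higher and 135 lower of all genes. With all mice, where all genes split into 261 and 139, these gave -0.28 (adjusted p = 0.0686) and -0.27 (adjusted p = 0.0907), and Pdp1 passed without GPx4+/- CNTL mouse 2 alone (adjusted p = 0.0178). Groups did not overlap for 2 of the 39 genes in WT (5.13%, Pfkl and Pygb, against 4.52% of all genes) and for 4 in GPx4+/- (10.3%, Pfkl, Ldha and Pdk1 higher and Pdp2 lower, against 4.48%). No gene of the 39 passed the test of the diet by genotype interaction (0% of all genes did), so the diet effect was not shown to differ between the genotypes. At an unadjusted p under 0.05 the interaction had 3 of the 39, Pdp1 (-0.31 log2, SE 0.12), Pdk1 (0.19, SE 0.084) and Pgam1 (0.22, SE 0.099), beside 857 of all genes.

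**Figure D2:**
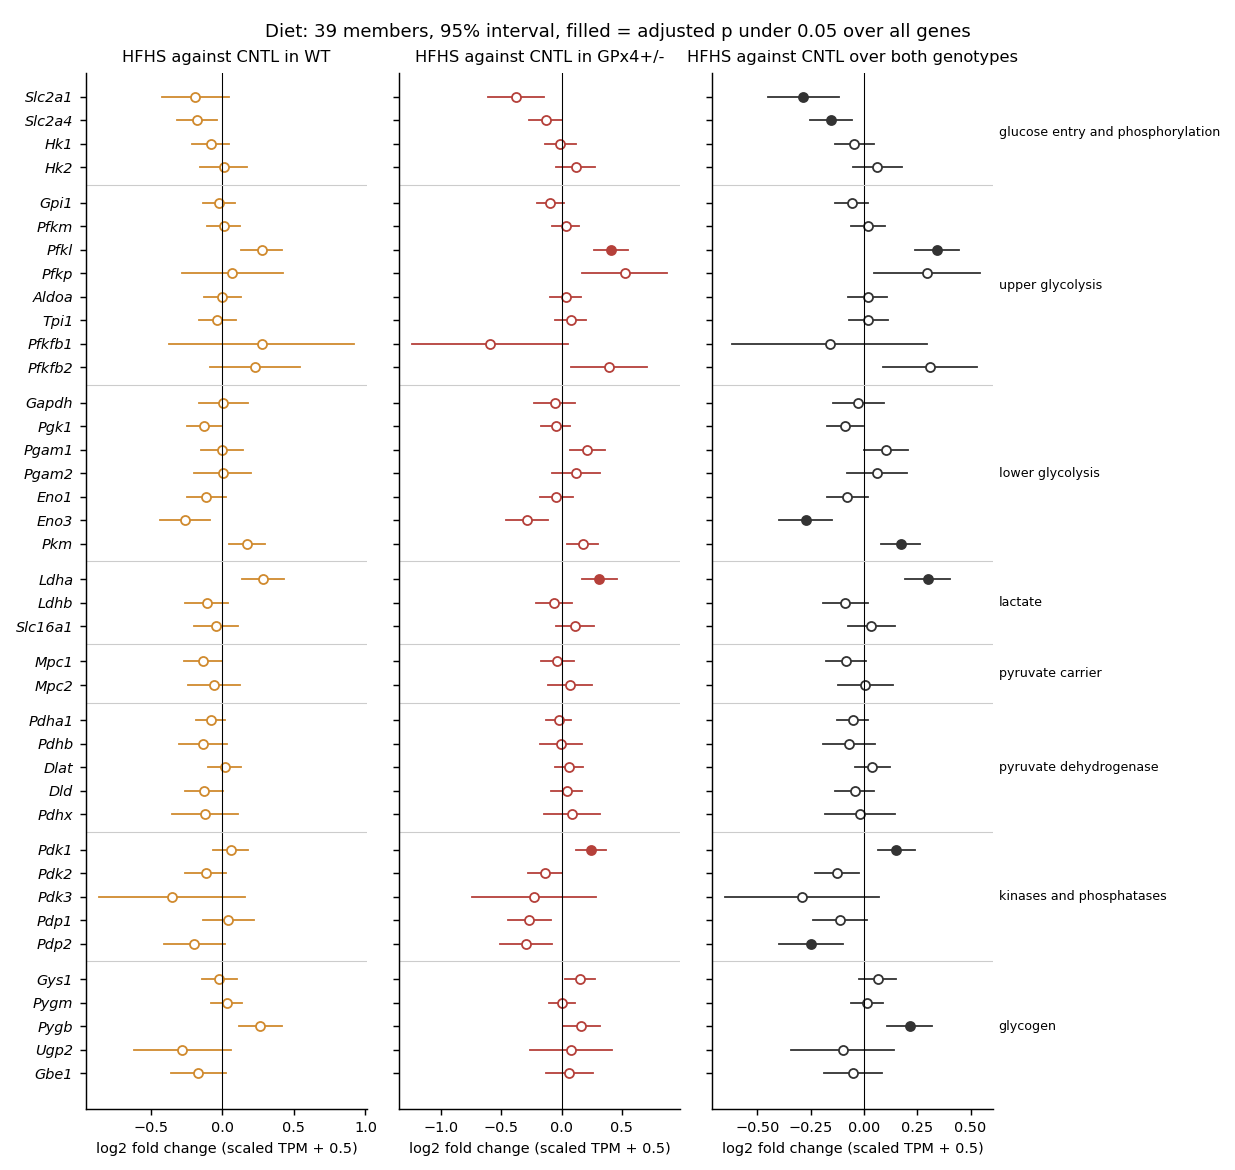
Log2 fold change on scaled TPM + 0.5 (x axis; the ranges of the 3 panels differ) of each of the 39 genes (y axis, by role), with its 95% confidence interval, for HFHS against CNTL in WT, in GPx4+/- and over both genotypes. Filled points have an adjusted p under 0.05 over all genes tested. No point is filled in WT, 3 are in GPx4+/- and 9 over both.

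Both glucose transporters were lower on HFHS. Slc2a1, which lets glucose in without insulin, read 8.68, 8.76, 10.1, 8.78 and 9.21 scaled TPM in the WT CNTL mice and 8.55, 8.98, 6.28, 6.48 and 9.76 in WT HFHS. In GPx4+/- it read 10.2, 9.55, 8.91, 10.1 and 8.59 on CNTL and 6.52, 6.18, 6.97, 9.39 and 7.08 on HFHS. In both genotypes the HFHS mice spread wider than the CNTL mice and overlapped them, with 4 of 5 GPx4+/- HFHS mice below every GPx4+/- CNTL mouse. Over both genotypes Slc2a1 fell by 17.9% (log2 -0.29, SE 0.079, adjusted p = 0.0304 from limma). Of its level, 50.1% came from the coding transcript Slc2a1-201 and 48.9% from Slc2a1-204, annotated as subject to nonsense-mediated decay. Slc2a4, the GLUT4 gene, read 244, 263, 243, 262 and 283 in WT CNTL and 245, 230.3, 226, 199 and 246 in WT HFHS. Its GPx4+/- mice read 248, 240.4, 246, 253 and 239 on CNTL, the tightest of its groups, and 224, 199.9, 253, 241 and 206 on HFHS. The groups overlapped, and the decrease over both genotypes was 10.2% (log2 -0.15, SE 0.047, adjusted p = 0.0473). Without the 6 mice with high markers of other tissue neither transporter passed (limma), with a log2 fold change of -0.26 and an adjusted p of 0.0547 for Slc2a1 and of -0.16 and 0.0781 for Slc2a4. The hexokinases that trap the glucose, Hk1 and Hk2, did not pass the test, with log2 fold changes of -0.05 (SE 0.044) and 0.06 (SE 0.055).

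Upper glycolysis was marked by the liver form of phosphofructokinase. Pfkl, on chromosome 10 from 77986947 to 78010083 of GRCm38, minus strand, read 64.4, 56.1, 53.4, 58.9 and 64.3 in WT CNTL and 70.2, 69.0, 76.2, 71.5 and 72.2 in WT HFHS. In GPx4+/- it read 55.5, 54.2, 44.9, 55.6 and 56.4 on CNTL and 74.8, 62.7, 77.0, 70.9 and 69.6 on HFHS, and the carnosine mice read 71.0, 74.4, 74.5, 74.6 and 75.8. All 15 mice on HFHS except GPx4+/- HFHS mouse 2 lay above all 10 CNTL mice. The rise was 26.8% over both genotypes (log2 0.34, SE 0.048, adjusted p = 0.000258) and 32.9% in GPx4+/- (log2 0.41, SE 0.068, adjusted p = 0.00303, limma). In WT the difference was 0.27 (SE 0.068), which did not pass. Gpx4 lies on the same chromosome as Pfkl, from 80047166 to 80056439. Any part of that position in the GPx4+/- values of Pfkl was not tested. The muscle form Pfkm, which makes up most of the enzyme's mRNA, gave 0.02 on the log2 scale (95% interval -0.06 to 0.10), and the platelet form Pfkp gave 0.30 (SE 0.12, adjusted p = 0.130). Pfkfb2, the heart form of the bifunctional enzyme that makes and breaks down the phosphofructokinase activator fructose 2,6-bisphosphate, gave 0.31 (SE 0.11, adjusted p = 0.0747). Gpi1, Aldoa, Tpi1 and Pfkfb1 did not pass either, and the first 3 of these had log2 fold changes between -0.06 and 0.02.

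In lower glycolysis the muscle enolase fell while pyruvate kinase rose. Eno3 read 1098, 1149, 933, 1133 and 1202 in WT CNTL and 1041, 865, 926, 848 and 914 in WT HFHS. The GPx4+/- mice read 994, 1063, 1199, 1128 and 1244 on CNTL and 999.6, 818, 941, 1045 and 826 on HFHS. The groups overlapped in both genotypes, and the decrease over both was 17.2% (log2 -0.27, SE 0.059, adjusted p = 0.00751 from limma). The widely expressed enolase Eno1 gave -0.08 (SE 0.045) and did not pass. Pkm, the muscle-type pyruvate kinase gene, read 714, 682, 651, 693 and 762 in WT CNTL and 799.9, 753, 802, 758 and 826 in WT HFHS. Its GPx4+/- mice read 659, 665, 672, 699 and 754 on CNTL and 857, 678, 809, 826 and 732 on HFHS. In WT, 3 of 5 HFHS mice were above every CNTL mouse, and over both genotypes Pkm rose by 12.7% (log2 0.17, SE 0.043, adjusted p = 0.0176), which did not pass without the 6 mice (log2 0.14, adjusted p = 0.128). Gapdh, Pgk1, Pgam1 and Pgam2 did not pass, with log2 fold changes from -0.09 to 0.10. For 3 of them reads may be divided with near-identical copies (at least 95% identity over at least 80% of the shorter transcript), which held 11.8% of the level of Gapdh, 23.6% of that of Pgam1 and 19.2% of that of Pgk1. With the copies added to each member, Pgam1 passed for diet in GPx4+/- (log2 0.25, adjusted p = 0.0490, limma, against 0.21 and 0.104 without them).

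Pkm makes 2 enzymes by using 1 of 2 alternative exons, the form M1 of adult muscle and heart and the form M2 of many dividing and embryonic tissues. The exons are shown because they decide which pyruvate kinase the higher Pkm mRNA encodes. Each is exon 9 of its transcript and 167 bases long. The M1 exon (transcript Pkm-202) lies at chr9:59675029-59675195 and the M2 exon (Pkm-201) at chr9:59675568-59675734 of GRCm38, plus strand, in coding sequence. Sequences are from the GENCODE M21 transcripts, and capitals mark the 64 bases at which the exons differ when laid side by side from their first base (61.7% identity).
Pkm M1 exon: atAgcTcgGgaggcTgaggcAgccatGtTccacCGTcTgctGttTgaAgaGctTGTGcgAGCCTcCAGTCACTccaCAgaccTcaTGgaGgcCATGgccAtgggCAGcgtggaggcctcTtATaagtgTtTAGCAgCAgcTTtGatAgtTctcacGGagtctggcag
Pkm M2 exon: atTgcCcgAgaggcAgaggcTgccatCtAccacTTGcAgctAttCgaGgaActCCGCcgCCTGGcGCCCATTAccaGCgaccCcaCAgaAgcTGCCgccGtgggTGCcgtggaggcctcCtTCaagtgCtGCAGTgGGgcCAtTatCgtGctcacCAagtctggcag
By transcript, M1 stood at 469.8 ± 32.6 scaled TPM in WT CNTL, 525 ± 27.8 in WT HFHS and 528 ± 37.6 with carnosine (SD, n = 5 each), and at 464 ± 31.8 and 526 ± 51.4 in GPx4+/- on CNTL and HFHS. M2 stood at 214 ± 14.0, 242 ± 13.4, 234 ± 18.4, 207 ± 10.5 and 235 ± 23.1 in the same order. M1 thus made up between 66.4% and 71.1% of the 2 forms in every mouse. Its mean share was 68.7% in WT CNTL and 68.5% in WT HFHS, and 69.1% in both GPx4+/- groups. The share did not pass in any of the 3 comparisons made (two-sided exact permutation p = 0.762 in WT, 0.952 in GPx4+/- and 0.357 for carnosine). Of the 9 comparisons of the levels and the share of these forms, the smallest adjusted value was 0.143. Levels of single transcripts are estimates from reads that the 2 forms mostly share, and these transcripts also differ at their ends.

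At lactate the muscle form of the dehydrogenase rose. Ldha, on chromosome 7 from 46841475 to 46855627, read 443, 459, 369.9, 472 and 402 in WT CNTL and 465, 504, 548, 564 and 529 in WT HFHS. Among GPx4+/- mice it read 412, 404, 445, 370.5 and 423 on CNTL and 524, 465, 525, 491 and 548 on HFHS. The GPx4+/- groups did not overlap, and in WT 1 HFHS mouse (number 1) lay within the CNTL range. The rise was 23.0% over both genotypes (log2 0.30, SE 0.050, adjusted p = 0.000997) and 24.2% in GPx4+/- alone (log2 0.31, SE 0.070, adjusted p = 0.0187, limma). Ldhb, the heart form, gave -0.09 (SE 0.051) and Slc16a1, the lactate and pyruvate carrier MCT1, 0.03 (SE 0.053), and neither passed.

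Past pyruvate, no gene of the mitochondrial carrier or of the dehydrogenase complex passed. Mpc1 gave -0.09 (SE 0.045) and Mpc2 0.01 (SE 0.062) on the log2 scale. The 5 genes of the complex, Pdha1 and Pdhb (the E1 subunits), Dlat (E2), Dld (E3) and Pdhx (the E3-binding protein), lay between -0.07 and 0.04, with the widest 95% interval for Pdhx (-0.18 to 0.15). Among its regulators a kinase rose and a phosphatase fell. Pdk1 read 54.8, 54.9, 52.2, 54.9 and 58.8 in WT CNTL and 60.1, 59.4, 54.3, 51.3 and 62.3 in WT HFHS. Its GPx4+/- mice read 51.7, 54.3, 43.7, 50.6 and 52.3 on CNTL and 59.0, 60.5, 61.3, 56.1 and 62.2 on HFHS. The GPx4+/- groups did not overlap while the WT groups did, and Pdk1 rose by 18.5% in GPx4+/- (log2 0.24, SE 0.059, adjusted p = 0.0292 from limma) and by 11.1% over both genotypes (log2 0.15, SE 0.042, adjusted p = 0.0296). Neither call held without the filter on low values, with TPM as deposited or with mitochondrial transcripts left out. The highest adjusted p (limma) was 0.314 in GPx4+/- and 0.304 over both genotypes. Pdp2 read 9.60, 8.08, 7.36, 8.76 and 10.9 in WT CNTL and 7.67, 6.25, 7.62, 7.49 and 9.68 in WT HFHS. In GPx4+/- it read 8.55, 8.29, 10.4, 8.24 and 9.10 on CNTL and 7.19, 6.65, 7.61, 7.50 and 6.82 on HFHS. The GPx4+/- HFHS mice all lay below their controls, the WT groups overlapped, and the decrease over both genotypes was 15.7% (log2 -0.25, SE 0.072, adjusted p = 0.0390). Pdk2, the most abundant of the 3 kinases among the 39 genes, gave -0.13 (SE 0.048, adjusted p = 0.110), and Pdk3 and Pdp1 did not pass.

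Among the glycogen genes the brain form of phosphorylase, which frees glucose units from glycogen, was the only 1 of 5 that passed. Pygb read 270.0, 257, 299.7, 249.9 and 299 in WT CNTL and 339, 324, 310.0, 316 and 362 in WT HFHS. The GPx4+/- mice read 299.8, 263, 327, 276 and 277 on CNTL and 327, 293, 329, 369 and 299 on HFHS. All 5 WT HFHS mice were above all WT CNTL mice, whereas the GPx4+/- groups overlapped. Over both genotypes Pygb rose by 16.0% (log2 0.21, SE 0.051, adjusted p = 0.0135 from limma). The muscle form Pygm gave 0.01 (95% interval -0.06 to 0.09), glycogen synthase Gys1 0.07 (SE 0.042), Ugp2, which makes UDP-glucose, -0.10 (SE 0.12) and the branching enzyme gene Gbe1 -0.05 (SE 0.065).

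Leaving out single mice separated these calls. Over both genotypes Pfkl, Ldha, Pygb, Pkm and Eno3 kept an adjusted p under 0.05 in all 20 fits that left out 1 mouse (limma; the highest was 0.0343, for Pkm). Pdk1 did not pass without WT HFHS mouse 2 or 5 or GPx4+/- HFHS mouse 3 or 5 (highest adjusted p = 0.0566). Slc2a1 did not pass without WT CNTL mouse 3, GPx4+/- CNTL mouse 1 or 4, WT HFHS mouse 3 or 4 or GPx4+/- HFHS mouse 1 (highest 0.0568). Pdp2 passed in only 7 of the 20 fits, those without WT CNTL mouse 2 or 3, GPx4+/- CNTL mouse 2 or 4, WT HFHS mouse 5 or GPx4+/- HFHS mouse 3 or 4 (highest adjusted p 0.0697), and Slc2a4 in 6, those without WT CNTL mouse 1 or 3, WT HFHS mouse 1 or 5 or GPx4+/- HFHS mouse 3 or 4 (highest 0.0861). In GPx4+/- alone, Pfkl passed in all 20 fits. Ldha did not pass there without GPx4+/- CNTL mouse 4 or GPx4+/- HFHS mouse 5 (highest adjusted p = 0.0586), and Pdk1 did not without GPx4+/- CNTL mouse 1, 3 or 4 or GPx4+/- HFHS mouse 1, 2, 3 or 5 (highest 0.0769). The direction never changed.

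Some cell type markers moved with the diet as well. Over both genotypes the cardiomyocyte gene Myh6 fell (log2 -0.17, adjusted p = 0.0315 from limma), 1 of 6 ventricular markers called, with 4 of the 6 lower and 2 higher. The fibroblast genes Lum (0.55, adjusted p = 0.0393) and Pdgfra (0.29, adjusted p = 0.0471) rose, 2 of 5 called and all 5 higher. Cidea, listed as a brown fat marker and expressed here at 19.2 to 32.8 scaled TPM, rose (0.29, adjusted p = 0.00292), although Ucp1 was at or near 0. Smooth muscle markers were higher in 5 of 6 with none called, endothelial markers in 4 of 5 and macrophage markers in 4 of 4, also with none called. None of the 6 atrial, 7 hepatocyte, 2 adipocyte, 5 erythroid and 1 skeletal muscle markers tested was called, and all but 3 of the erythroid ones were lower. In GPx4+/- alone Cidea was the only marker called (0.37, adjusted p = 0.0127). The summed ventricular markers ran from 39292 to 47316 in the CNTL mice and from 37665 to 44153 in the HFHS mice without carnosine. The summed fibroblast markers ran from 258 to 500.2 and from 305.7 to 581. The part of these markers in the gene differences above was not tested. In whole tissue, fewer cells of a type and less of an mRNA per cell cannot be told apart.

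Because isoenzymes of a step were measured in the same mouse, the share of 1 form within its family does not depend on the scaling of the library. Shares were computed for 9 families, counting only forms among the 39 genes, and compared in 3 ways (27 comparisons, two-sided exact permutation tests of 5 mice against 5, whose smallest possible p is 0.00794). They use the same mice and genes as the tests above and were chosen after those were seen. Ldha made up 22.6% ± 1.65 of Ldha and Ldhb in WT CNTL and 27.8% ± 3.01 in WT HFHS (SD, n = 5 each, exact permutation p = 0.00794, adjusted 0.0357). In GPx4+/- the share was 22.2% ± 1.54 on CNTL and 27.1% ± 1.50 on HFHS (exact permutation p = 0.00794, adjusted 0.0357). Every HFHS mouse without carnosine had a larger Ldha share than every CNTL mouse of its genotype. Pfkl made up 10.5% ± 0.564 of the 3 phosphofructokinases in WT CNTL against 12.4% ± 0.766 in WT HFHS, and 9.76% ± 0.877 against 12.2% ± 0.509 in GPx4+/- (exact permutation p = 0.00794 and adjusted 0.0357 in each). Pdk1 made up 16.7% ± 0.584 of Pdk1, Pdk2 and Pdk3 in WT CNTL against 18.5% ± 0.509 in WT HFHS, and 15.6% ± 1.51 against 19.4% ± 1.86 in GPx4+/- (exact permutation p = 0.00794 and adjusted 0.0357 in each). For these 3 families the groups did not overlap in either genotype. For Pdk1 this depended on leaving out Pdk4, which is not among the 39 genes and whose mean level was above that of Pdk2 in all 5 groups, by more than its SD only in WT CNTL. With Pdk4 counted, the Pdk1 share was 6.95% ± 1.06 in WT CNTL against 9.89% ± 2.41 in WT HFHS (exact permutation p = 0.0317, adjusted 0.0952) and 7.89% ± 1.41 against 10.4% ± 3.17 in GPx4+/- (exact permutation p = 0.159, adjusted 0.357), and the groups overlapped in both genotypes. The share of Pygb in Pygm and Pygb was 49.7% against 53.8% in WT and 50.7% against 53.5% in GPx4+/- (exact permutation p = 0.0317 and adjusted 0.0857 in each). Eno3 made up 89.1% of the enolases against 88.0% in WT (exact permutation p = 0.127) and 89.7% against 88.2% in GPx4+/- (p = 0.0238, adjusted 0.0857). The shares of Slc2a1, Hk2, Pgam1 and Pdp1 did not pass in any comparison. With carnosine none of the 9 shares passed, with raw exact permutation p from 0.286 to 0.690.

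**Figure D3:**
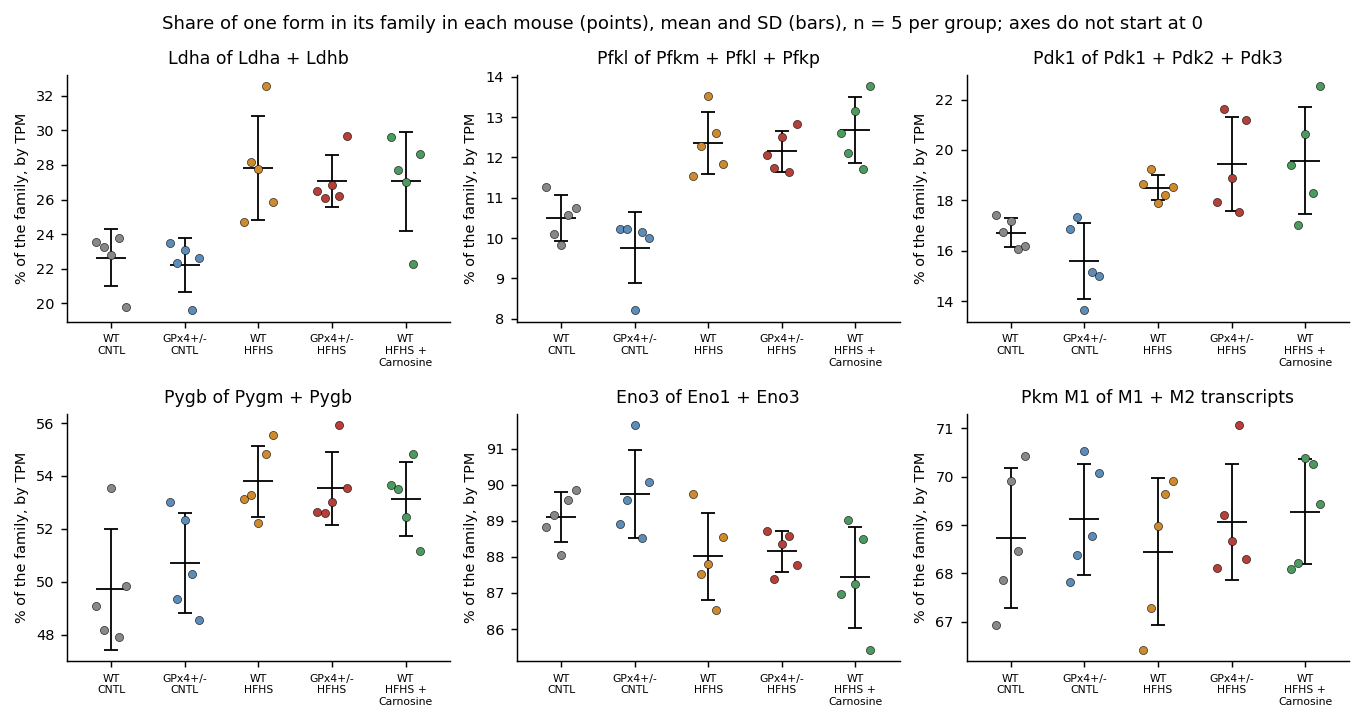
Share (y axis, % of the family's summed TPM; axes do not start at 0) of 1 form in its family in each mouse, for 5 enzyme families and for the M1 form of Pkm, in the 5 groups (x axis). Points are mice and bars are means ± SD (n = 5). The Ldha and Pfkl shares, and the Pdk1 share with Pdk4 left out, are larger in every HFHS mouse without carnosine than in any CNTL mouse of the same genotype, while the Pkm M1 share stays between 66.4% and 71.1%.

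The sequence before the start site of the 2 genes with the lowest adjusted p, Ldha and Pfkl, is shown so that their promoters can be compared (RefSeq, GRCm38.p6, windows of 250 bases). The Ldha window, chr7:46845554-46845803, plus strand, belongs to the nearer of its 2 listed starts to the transcript Ldha-202, which gave 98.2% of its level. The Pfkl window, chr10:78009808-78010057, is on the minus strand and lies directly before the start of Pfkl-201, which gave 92.2% of its level. It falls inside the gene's outer limits because Pfkl-202, with 2.64% of the level, starts further upstream, and the 197 bases at chr10:78009808-78010004 that lie outside annotated exons, within the first intron of Pfkl-202, are printed. Capitals mark ACGTG on either strand, which is 1 of the 2 forms of the core letters bound by hypoxia-inducible factors and, as CACGTG, overlaps the letters bound by E-box factors. The other form, GCGTG, was also counted on either strand, after the sequences were seen, and is not in capitals.
Ldha: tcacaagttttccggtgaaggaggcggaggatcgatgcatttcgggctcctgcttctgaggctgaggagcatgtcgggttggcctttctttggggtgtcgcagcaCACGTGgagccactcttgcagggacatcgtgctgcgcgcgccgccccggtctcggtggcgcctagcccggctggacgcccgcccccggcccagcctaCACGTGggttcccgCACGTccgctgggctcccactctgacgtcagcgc
Pfkl: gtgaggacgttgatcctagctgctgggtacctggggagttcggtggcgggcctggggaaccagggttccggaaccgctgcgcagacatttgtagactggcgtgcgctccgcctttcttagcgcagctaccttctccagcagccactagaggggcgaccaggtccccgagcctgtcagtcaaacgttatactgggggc
The printed Ldha window holds CACGTG at 2 places, each of which counts as ACGTG on both strands, and 1 more ACGTG, for 5 matches in all, and no GCGTG. The window of the other Ldha start holds no ACGTG and 1 GCGTG. The Pfkl window likewise holds no ACGTG and 1 GCGTG. Of the 9 genes called for diet, 8 had a window and 5 of these held ACGTG in at least 1 (Ldha, Pdp2, Slc2a1, Pkm and Pygb), of which Ldha and Pdp2 held CACGTG. Among all 39 genes, 37 had a window and 17 held ACGTG (45.9%), beside 25.3% of the 9104 tested genes with a window. CACGTG was held by 6 of the 37, beside 10.0% of the tested genes. GCGTG was held by 6 of the 8 called genes with a window and by 24 of the 37 (64.9%), beside 50.4% of the tested genes. Of all 32851 windows of this length in the table, 16.6% held ACGTG, 6.02% CACGTG and 28.2% GCGTG. These counts describe letters and were not tested.

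Genes of the same pathway outside the 39 were taken from a list of 43, of which 36 were expressed enough to be tested. Over both genotypes, 6 of the 36 were called for diet (8.33% of all genes were), 3 higher and 3 lower (4.69% and 3.65% of all genes). The largest change was in Slc16a7, the lactate and pyruvate carrier MCT2, which read 4.04, 5.08, 4.37, 5.75 and 4.31 in WT CNTL and 1.81, 2.96, 1.78, 3.25 and 2.85 in WT HFHS. In GPx4+/- it read 3.36, 3.96, 5.13, 5.59 and 6.32 on CNTL and 1.47, 2.47, 1.46, 2.42 and 2.69 on HFHS, and 1.73, 1.30, 2.70, 1.95 and 1.81 in the carnosine mice. All 15 HFHS mice were below all 10 CNTL mice. The log2 fold change was -0.80 (SE 0.18, adjusted p = 0.0382) in WT and -1.05 (SE 0.18, adjusted p = 0.00471) in GPx4+/- from limma. Ppp1r3c, which targets a phosphatase to glycogen and favours its storage, rose over both genotypes (0.61, SE 0.11, adjusted p = 0.00185) and in GPx4+/- (0.78, SE 0.15, adjusted p = 0.00848). It read 38.3 ± 6.17 in WT CNTL, 52.0 ± 9.39 in WT HFHS, 32.5 ± 7.91 in GPx4+/- CNTL and 55.5 ± 8.00 in GPx4+/- HFHS (SD, n = 5 each), without overlap in GPx4+/-.

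Fbp2, the muscle fructose bisphosphatase that runs a glycolytic step in reverse, rose over both genotypes (0.38, SE 0.11, adjusted p = 0.0329 from limma), with WT CNTL mice at 25.5 to 29.6 and WT HFHS mice at 32.2 to 38.6. In GPx4+/- the groups overlapped, with CNTL mice at 17.8 to 42.7 and HFHS mice at 29.3 to 38.6. Pcx, which carboxylates pyruvate to oxaloacetate, fell (-0.30, SE 0.086, adjusted p = 0.0334). Of the phosphorylase kinase subunits, Phkb rose (0.16, SE 0.047, adjusted p = 0.0440) and Phkg2 fell (-0.22, SE 0.053, adjusted p = 0.0121), and both also passed in GPx4+/- alone (0.27 and -0.29). That made 1 of the 36 in WT (Slc16a7, background 1.19%) and 4 in GPx4+/- (Slc16a7, Ppp1r3c, Phkb and Phkg2, background 3.34%). Without the 6 mice with high markers of other tissue, Fbp2 (log2 0.34, adjusted p = 0.111, limma) and Pcx (log2 -0.25, adjusted p = 0.0893) did not pass over both genotypes, and Pfkfb3 passed in GPx4+/-, lower (log2 -0.46, adjusted p = 0.0468, against -0.33 and 0.113 with all mice). Pdk4, the kinase of the dehydrogenase complex that fasting and fatty acids induce, was highly variable, from 341 to 572 in WT CNTL, 161 to 548 in WT HFHS, 183 to 439 in GPx4+/- CNTL and 145 to 699.9 in GPx4+/- HFHS. Its log2 fold change over both genotypes was -0.51 (SE 0.28, adjusted p = 0.271, limma), with a 95% interval of -1.09 to 0.07.

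**Figure D4:**
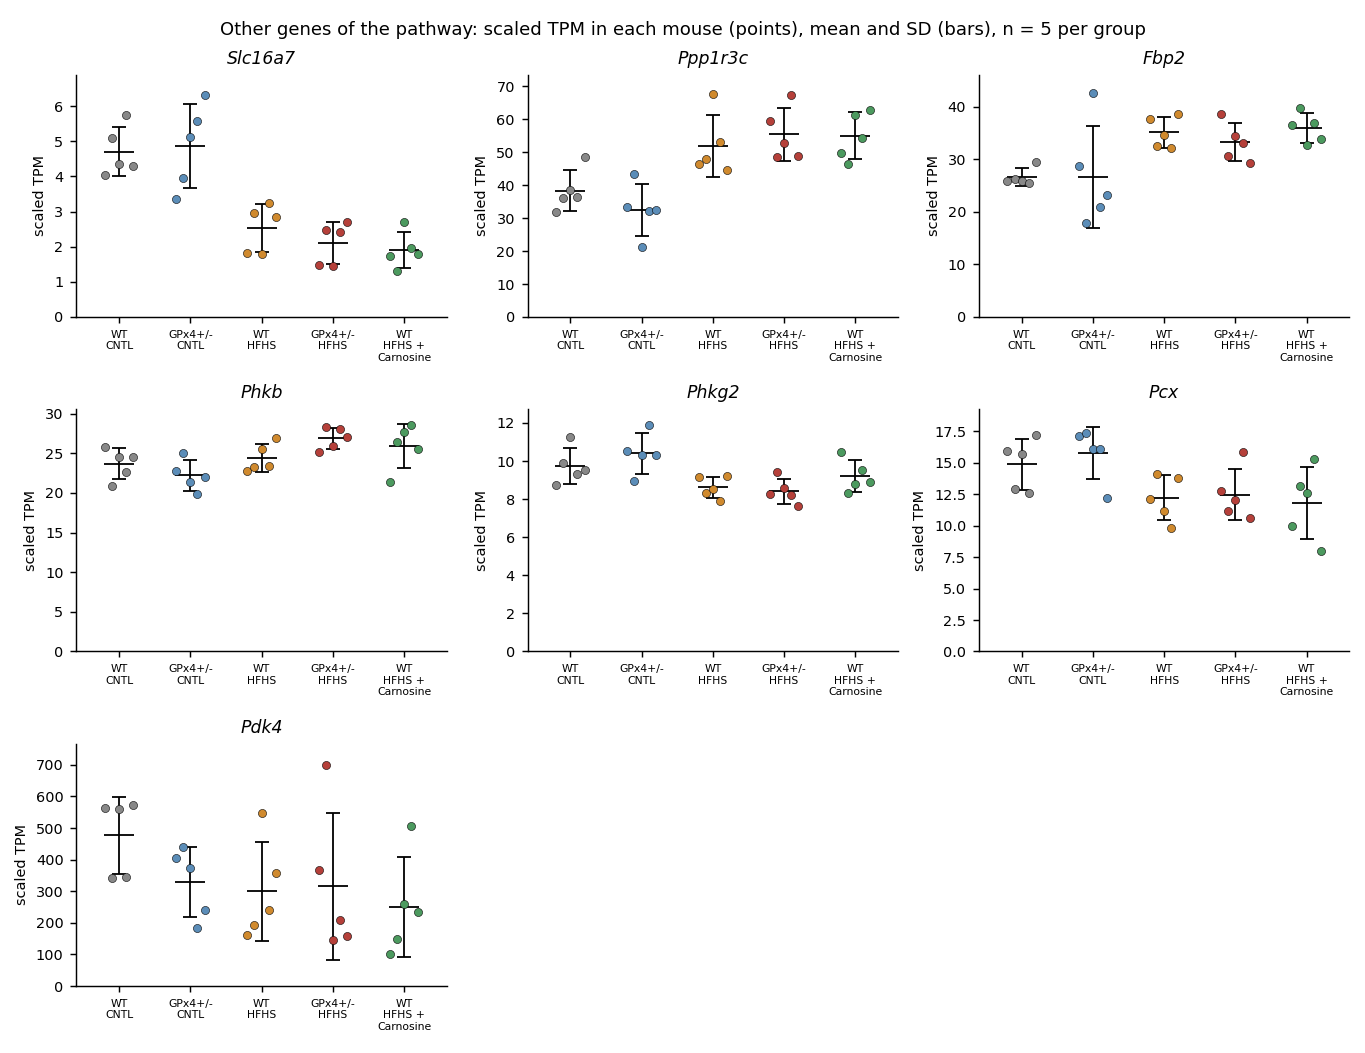
Scaled TPM (y axis, from 0) in each mouse of the 6 pathway genes outside the 39 that passed the test for diet over both genotypes, and of Pdk4, in the 5 groups (x axis). Points are mice and bars are means ± SD (n = 5). Slc16a7 is lower in all 15 HFHS mice than in all 10 CNTL mice, and Pdk4 spreads from 99.8 to 699.9.

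Carnosine was compared in WT mice on HFHS, 5 with and 5 without. None of the 39 genes passed (0% of all 11974 genes did; limma), none had an unadjusted p under 0.05 (503 of all genes did), and none had groups without overlap (0.61% of all genes). The 2 smallest p belonged to Slc16a1 (0.14 log2, SE 0.081, 95% interval -0.03 to 0.32) and Pgk1 (0.11, SE 0.066, 95% interval -0.04 to 0.25), both with an adjusted p of 0.947. For 37 of the 39 the 95% interval lay within 0.5 on either side of 0 on the log2 scale, the exceptions being Pfkp and Pfkfb1. Of the genes called for diet, the interval was -0.05 to 0.14 for Pfkl, -0.22 to 0.14 for Ldha, -0.14 to 0.11 for Pkm, -0.26 to 0.13 for Pygb, -0.09 to 0.21 for Pdk1 and -0.18 to 0.19 for Eno3. For Slc2a1, Slc2a4 and Pdp2 it was wider, -0.39 to 0.24, -0.21 to 0.26 and -0.34 to 0.25. The carnosine mice read 521, 585, 505, 427 and 509 for Ldha and 306, 333, 306, 383 and 263 for Pygb, spreading below and above the range of the WT HFHS mice.

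Set against WT CNTL, a comparison that shares these CNTL mice with the WT diet comparison, the carnosine mice gave 1 called gene of the 39 (2.56%, background 1.19%), Pfkl, which rose (log2 0.32, SE 0.063, adjusted p = 0.0139, limma). WT HFHS without carnosine gave 0.27 (SE 0.068) for the same gene in the fit without the carnosine mice. In the fit of all 25 mice it gave 0.27 (SE 0.063, adjusted p = 0.0300, limma) and passed as well. Ldha gave 0.25 (SE 0.077, adjusted p = 0.127) with carnosine and 0.28 without. Eno3 gave -0.26 (SE 0.087) and -0.26. Slc16a7 was again the only called gene of the 36 others (-1.13, SE 0.18, adjusted p = 0.00311). Without the 6 mice with high markers of other tissue Pfkl did not pass (log2 0.28, adjusted p = 0.0942, limma), while Eno3 did, lower (log2 -0.37, adjusted p = 0.0417).

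Genotype was the last question. None of the 39 genes passed between GPx4+/- and WT on CNTL (0.0501% of all genes did), on HFHS (0.0501%) or over both diets (0.0585%), from limma. At an unadjusted p under 0.05 there were 4, 1 and 1 of the 39, beside 753, 546 and 469 of all genes. The smallest p on CNTL belonged to Gys1 (-0.21 log2, SE 0.059, adjusted p = 0.701) and Pdp1 (0.25, SE 0.085, adjusted p = 0.728). On HFHS they belonged to Dld (0.14, SE 0.063) and Pgam1 (0.10, SE 0.070), both with an adjusted p of 0.979. Over both diets they belonged to Gys1 (-0.12, SE 0.042) and Pfkl (-0.09, SE 0.048), both with an adjusted p of 1.00. Over both diets 38 of the 39 intervals lay within 0.5 of 0, the exception being Pfkfb1. Pfkfb1 was uneven in GPx4+/- CNTL, with 30.1, 16.1, 47.6, 16.0 and 10.3 scaled TPM against 10.7 to 18.3 in WT CNTL. None of the 36 other pathway genes was called for genotype, for the interaction or for carnosine.

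**Figure D5:**
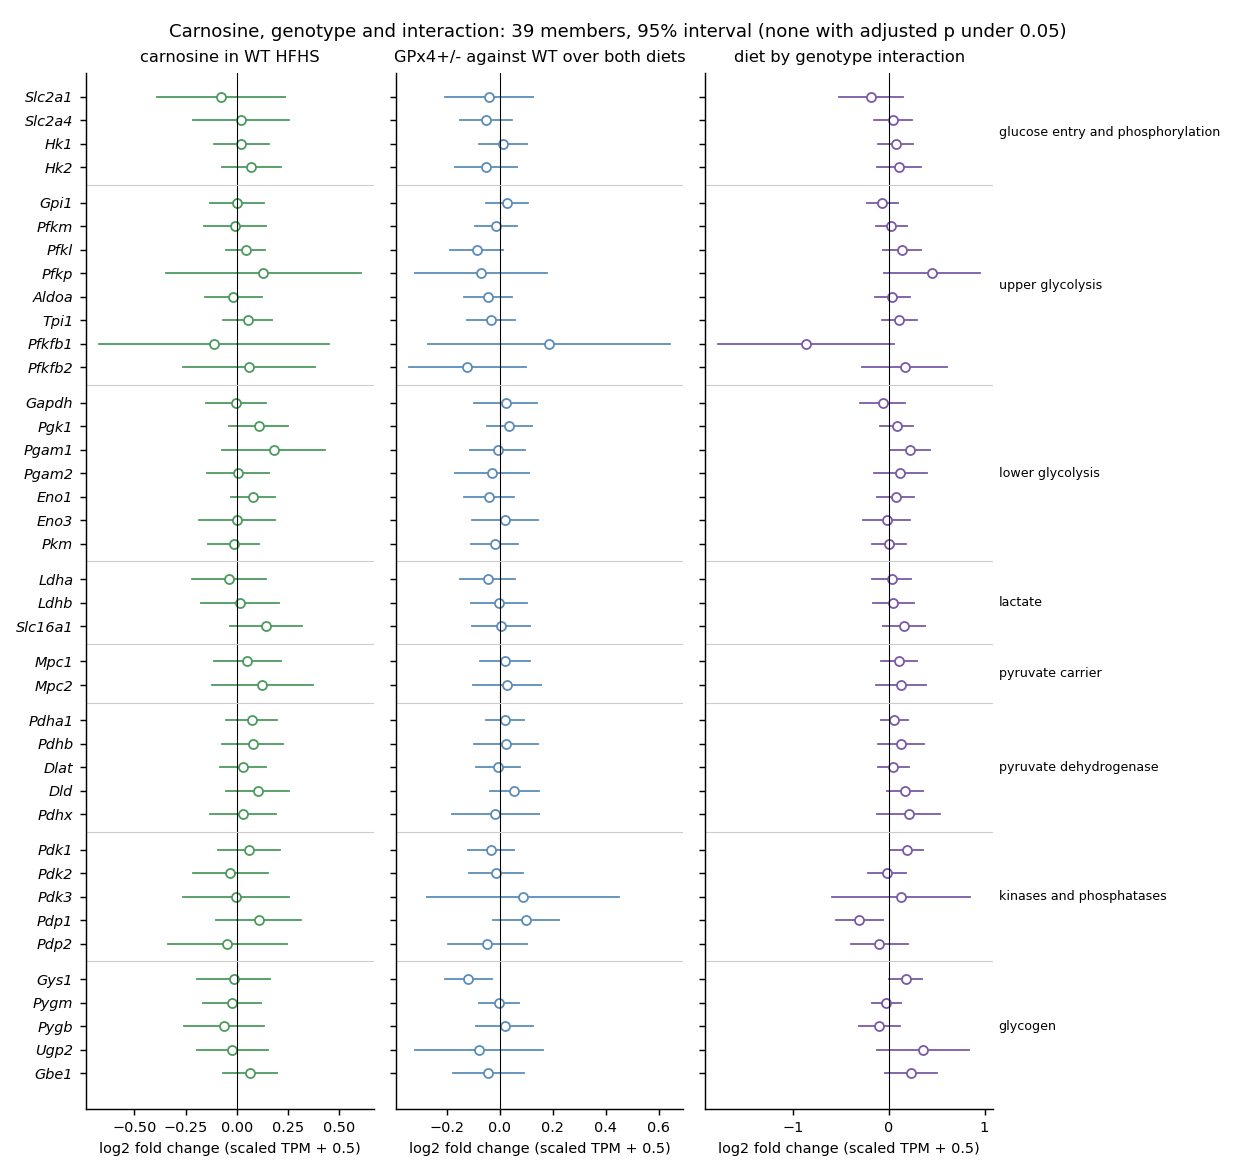
Log2 fold change on scaled TPM + 0.5 (x axis; the ranges of the 3 panels differ) of each of the 39 genes (y axis, by role) with its 95% confidence interval, for carnosine in WT HFHS, for GPx4+/- against WT over both diets and for the diet by genotype interaction. No point is filled, since none had an adjusted p under 0.05, and the bounds of the intervals reach from -1.78 to 0.95 for the interaction.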

How the data were processed

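RNA from left ventricular tissue was sequenced as stranded, poly(A)-selected libraries (25 mice, 5 per group; separate animals). The authors deposited 1 table of TPM for 119215 mouse transcripts. Per the labels, kallisto 0.43.1, sleuth 0.30.0 and GRCm38 were used, while the study's methods describe STAR and DESeq2 on gene counts; which tool made the table is not given in the sources used here. The study's methods give an approximate read depth per sample. The depth of each single library is not given with the TPM, and the number of mice limits precision.

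TPM of 116772 transcripts matched to GENCODE M21 were summed per symbol and divided by a median-ratio factor over 11871 genes. Genes with a mean of at least 1 scaled TPM were tested with limma 3.58.1 (R 4.3.3) on log2(scaled TPM + 0.5), with empirical Bayes trend and Benjamini-Hochberg adjustment over all genes tested. Fold changes are on that scale and understate those of low genes. The 4 groups without carnosine shared 1 fit, the carnosine comparison used its 10 mice, and WT HFHS + Carnosine against WT CNTL used all 25. Isoenzyme shares and Pkm forms were compared with exact permutation tests (scipy 1.17.1). Near-identical copies were found with blastn 2.17.0. The 39 members, the 43 other pathway genes and the 11 marker lists were chosen with earlier results of these data known. Named were all members called in a comparison, and otherwise the members with the 2 smallest p. Settings tried were the pseudocount, the filter, the scaling, array weights, a replicate block, 1 fit of all mice, copies added, 6 mice left out, and each mouse left out. Counting Pdk4 in the Pdk1 share and leaving out the 6 mice for the other pathway genes were added after the data were seen.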

Additional observations from a re-analysis of the deposited data

Results flagged for a closer look

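Dixon's test was run on 230 groups of 5 mice, and 11 held a mouse whose gap to the nearest other mouse exceeded 0.71 of the group's range. Chance flags about 1 in 20 groups, or 11.5 here, which is about the number found. All values are scaled TPM. WT CNTL mouse 3, which had high atrial markers, was lowest for Aldoa at 2188 (the others 2468 to 2553), for Tpi1 at 457 (517 to 540.0) and for Mpc2 at 276 (333 to 353). WT CNTL mouse 5 read 29.6 for Fbp2 (25.5 to 26.2).

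In GPx4+/- CNTL, mouse 3 read 44.9 for Pfkl (54.2 to 56.4), mouse 1, also with high atrial markers, 3.24 for Pdk3 (0.758 to 1.32) and mouse 5 12.2 for Pcx (16.1 to 17.4). WT HFHS mouse 4, with high smooth muscle markers, read 31.0 for Pfkp (19.4 to 22.5). In GPx4+/- HFHS, mouse 4, with high atrial markers, read 9.39 for Slc2a1 (6.18 to 7.08), mouse 5 8.71 for Pfkfb1 (14.4 to 16.4) and mouse 1 450.3 for Pdhb (421 to 429.7).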

How the results depend on the processing

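No called member changed sign under any setting, and over all called members the adjusted p stayed under 0.05 in 335 alternative fits and was above it in 72. Over both genotypes 5 members were called without the filter on low values, and other settings gave 6 to 9. In WT HFHS against CNTL, none was called as reported, against 2 with a mean of at least 5 scaled TPM, 3 with quantile normalization, 1 with mitochondrial transcripts left out, 4 with array weights and 1 with all 25 mice in 1 fit. Leaving out 1 mouse gave 0 to 2 (2 without GPx4+/- CNTL mouse 3 or GPx4+/- HFHS mouse 2, 1 without WT HFHS mouse 1). In GPx4+/-, 5 were called without the 6 mice, and 1 to 5 without 1 mouse (1 without GPx4+/- CNTL mouse 4 or GPx4+/- HFHS mouse 5, 5 without GPx4+/- HFHS mouse 4). WT HFHS + Carnosine against WT CNTL gave 0 with TPM as deposited, 2 with quantile normalization, mitochondrial transcripts left out or array weights, and 1 to 2 without 1 mouse (2 without WT HFHS + Carnosine mouse 4).

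With TPM as deposited the median log2 fold change of the members was -0.0729 for diet in GPx4+/-, -0.0669 for genotype on HFHS, -0.0373 for the interaction, -0.0490 for carnosine and -0.0788 for WT HFHS + Carnosine against WT CNTL, and the median of all genes moved by about as much. Over all genes, diet in WT called 142 as reported, 45 without the filter, 38 with TPM as deposited, 68 with the replicate block and 407 with array weights. Diet in GPx4+/- called 400, against 237 without the filter and 222 with mitochondrial transcripts left out. Replicate numbers mark different mice. Same-numbered mice did not deviate together (9 of 50 pairs over r = 0.1, median r -0.004), and 5 of 25 correlated best with their own number. A replicate block left 7 members called for diet over both genotypes, without Slc2a1 and Slc2a4, and changed no other count of members. The causes were not tested.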
